A study of Homo sapiens with 9 samples.

Results

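The comparison of 10 µM with 0 µM 5-Aza set the 3 arrays of HT-29 cells labelled 10 µM against the 3 labelled 0 µM, 6 of the 9 arrays of the series. HT-29 is a human colon adenocarcinoma line, and 5-Aza is here 5-aza-deoxycytidine. The 0 µM cultures received the DMSO vehicle alone, and a further 3 cultures at 5 µM entered the fit and are given beside the results. Total RNA of each culture went onto 1 Affymetrix U133 Plus 2.0 array, with triplicate cultures per dose. Nothing beyond the replicate number tells how the cultures were separated, so p-values measure the spread between these arrays. Each of 19775 genes was represented by its brightest probe set over the 9 arrays. A gene was tested when its signal was at or above a floor, the median signal of its array, on all 3 arrays of the 0 µM or the 10 µM group, which held for 11378 genes.

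5-aza-deoxycytidine is a cytidine analog that is phosphorylated by deoxycytidine kinase, built into DNA during replication and bound covalently there by DNA methyltransferases. The trapped enzymes are lost and methylation falls as the cells divide, while the adducts also act as DNA damage. Genes known to respond in tumour cells include silenced germ cell genes, genes of the interferon response to double-stranded RNA, and genes of the cell cycle and the damage response.

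The arrays held the RNA of an intestinal epithelial line. Of 13 colon epithelium markers on the array, 11 reached the floor on all 3 arrays at 0 µM and at 10 µM, while CDX1 and CDX2, transcription factors of the intestine, were below it on every array. The log2 of the summed signal of these 13 markers was 16.49 to 16.54 on the vehicle arrays and 15.91 to 16.13 at 10 µM. Of 12 leukocyte markers 2 reached the floor at 0 µM and 3 at 10 µM (summed signal 8.04 to 8.31 and 8.43 to 8.68), of 10 fibroblast markers 2 and 2 (8.24 to 8.67 and 9.37 to 9.62), of 10 endothelial markers 2 and 3 (8.38 to 8.73 and 8.25 to 9.02), and of 10 muscle markers 0 and 1 (7.15 to 8.12 and 7.90 to 8.40). The defining genes PTPRC of leukocytes, COL3A1 of fibroblasts and VWF and CDH5 of endothelium were below the floor on every array, and 1 leukocyte (LAPTM5), 1 fibroblast (COL1A1) and 1 muscle marker (TNNT1) were called higher at 10 µM. Of the colon epithelium markers KRT8 and ELF3 were called lower and 0 higher. For the actin control, the log2 signal of the 3′ probe set minus that of the 5′ one, a measure that is larger in broken or partly copied RNA, was 1.91, 2.06 and 2.29 on the vehicle arrays and 2.84, 2.95 and 3.16 at 10 µM. These ranges did not overlap (exact permutation test over 20 arrangements, two-sided p = 0.1, the smallest that 3 against 3 arrays allow). The 3′ minus 5′ signal of GAPDH was 0.12, 0.20 and 0.25 against 0.55, 0.47 and 0.70, with the same p, and both had an adjusted p of 0.14 over 7 control measures. Of the variance of the actin measure over the 9 arrays, 89.2% lay between the doses. With it as a covariate 3 genes were called higher and 0 lower at the same thresholds, against 621 and 179 without it. The median log2 difference of the 621 was 1.39 in both fits, but their median standard error was 0.22 without and 0.64 with the covariate, 581 of the 621 kept their sign, and 314 had an unadjusted p under 0.05. For the 179 lower genes the median was -1.17 without and -0.97 with the covariate, 168 kept their sign and 66 had such a p. The study's methods give an RNA Integrity Number of 7 or more for its RNA, without values per sample. The part of the actin measure in the results below was not tested further. The 18S rRNA 5′ signal was 11.77, 13.45 and 13.60 at 10 µM, against 12.25 ± 0.21 in the vehicle (SD, 3 arrays). On this probe set replicate 1 stood apart from the other 10 µM arrays and lay nearest to the vehicle. The 18S rRNA 3′ signal was 13.47, 13.51 and 13.69 at 10 µM, where replicate 1 did not stand apart. The spread between arrays was also widest at 10 µM, with a median SD per gene of 0.208 against 0.132 at 0 µM.

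At 10 µM more genes were higher than lower. Of the 11378 genes tested, 621 were called higher (5.46%) and 179 lower (1.57%) by limma (more than 2-fold, with a p of 0.05 or less after Benjamini-Hochberg adjustment), so that 7.03% were called and 77.6% of the calls were rises. Without the fold threshold 3880 genes passed the adjusted p, of which 2261 (58.3%) were positive. The median difference over all tested genes was 0.03 on the log2 scale, and 53% of them were positive. This balance rested on the scaling of the arrays, whose medians were 5.07 to 5.20 at 0 µM and 5.25 to 5.52 at 10 µM. After quantile normalization 459 genes were higher and 234 lower (66.2% rises), and with equal array medians, which moved the median of all genes to -0.24, 386 were higher and 478 lower (44.7% rises). Of the 621 higher genes, 131 were under the floor on each vehicle array, so their folds are bounds, and 340 reached the floor on every array of both groups, where their median was 1.25. Higher genes other than those 340 were tested only because every 10 µM array reached the floor. Counts of higher genes in the lists below are partly set by this filter. Of the 179 lower genes, 144 were above the floor throughout, with a median of -1.16. Rises of more than 4-fold numbered 115 and falls of that size 10, over fitted values that include genes below the floor. The arrays of the groups did not overlap for 619 of the higher and 175 of the lower genes, and for 44.9% of all genes tested.

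**Figure D1:**
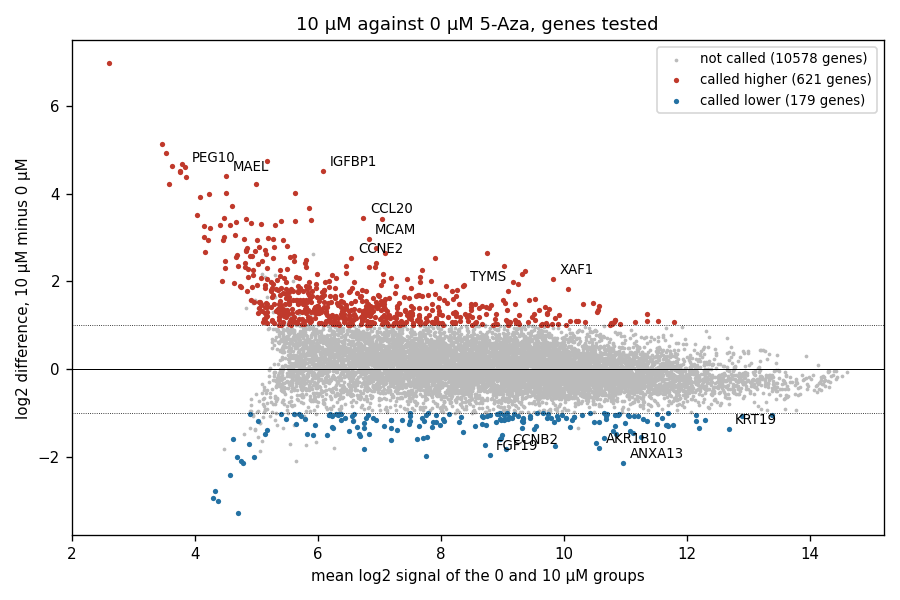
The log2 difference of 10 µM minus 0 µM (vertical axis) is plotted against the mean log2 signal of both groups (horizontal axis), 1 point per gene tested, with the 2-fold lines dotted. The 621 genes called higher (red) reach far up at low signals, where the vehicle values lie below the floor, whereas the 179 lower genes (blue) spread over the whole range of signals.

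The 12 largest rises, ranked with every low signal raised to the median of its array, were those of IGFBP1, TCN1, CCL20, MCAM, TNNI2, PI3, KLHDC7B, RBPMS2, ZNF117, CTHRC1, CCNE2 and ADTRP. Only called genes whose groups did not overlap were ranked, so the lack of overlap is part of their choice. IGFBP1, a secreted binder of insulin-like growth factors, had log2 signals of 3.67, 4.19 and 3.61 on the vehicle arrays, all below the floor, and 8.25, 8.50 and 8.30 at 10 µM. It was at least 9.20-fold higher (adjusted p = 4.61e-06), and the groups lay far apart. At 5 µM its mean was 10.42, so the 10 µM level was lower than that at 5 µM by a log2 difference of -2.07 (adjusted p = 0.000788). Another rise from below the floor was that of CTHRC1, a secreted protein of matrix remodelling, at 4.22, 3.48 and 3.15 in the vehicle and 7.66, 7.70 and 7.59 at 10 µM (at least 5.67-fold, adjusted p = 3.49e-05). Its 5 µM mean of 9.41 was also above the 10 µM level (difference -1.76, adjusted p = 0.00342). TCN1, which encodes a vitamin B12 binding protein, moved from 4.36, 5.80 and 5.86 to 8.75, 8.90 and 8.62, a log2 difference of 3.42 ± 0.34 (SE, adjusted p = 0.000278). The 5 µM mean of TCN1, 8.62, did not differ from the 10 µM one at the threshold (adjusted p = 0.806). MCAM, an adhesion molecule of the immunoglobulin family, was among the most precise of these, at 5.30, 5.46 and 5.28 against 8.53, 8.24 and 8.15 (2.96 ± 0.13, adjusted p = 1.05e-05). The elastase inhibitor gene PI3 rose by 2.66 ± 0.25 (adjusted p = 0.000202), from 6.06, 5.61 and 5.64 to 8.99, 8.42 and 7.87, and a further probe set for it was called too. TNNI2, a troponin of fast skeletal muscle, rose by 2.77 ± 0.31 (adjusted p = 0.000443), from 5.57, 4.81 and 6.32 to 8.50, 8.12 and 8.40. KLHDC7B, a kelch domain gene, rose by 2.65 ± 0.20 (adjusted p = 8.77e-05, with 0.91 and no call on its other tested probe set) and the zinc finger gene ZNF117 by 2.54 ± 0.24 (adjusted p = 0.000221).

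The promoters of 4 of the largest rises from below the floor are shown, because DNA methylation in these cells lies mainly at CpG. IGFBP1 and CTHRC1 rose more from below the floor than ADTRP, ATP6V1C2 and HERC5 but are not shown. The 4 are therefore not the top 4 of that ranking. Methylation was not measured here, so the windows show the letters only. They are RefSeq windows of 300 bases on GRCh38.p14, from 250 bases before to 50 after a gene's start, and CG is in capitals. RBPMS2, an RNA-binding protein of smooth muscle, has the window chr15:64775540-64775839 (minus strand, 50 CpG). ADTRP, a regulator of tissue factor pathway inhibitor, has chr6:11778754-11779053 (minus strand, 6 CpG). ATP6V1C2, a subunit of the vacuolar proton pump, has chr2:10721380-10721679 (plus strand, 39 CpG), and HERC5, the ligase that attaches ISG15 to proteins, has chr4:88456869-88457168 (plus strand, 21 CpG).
RBPMS2: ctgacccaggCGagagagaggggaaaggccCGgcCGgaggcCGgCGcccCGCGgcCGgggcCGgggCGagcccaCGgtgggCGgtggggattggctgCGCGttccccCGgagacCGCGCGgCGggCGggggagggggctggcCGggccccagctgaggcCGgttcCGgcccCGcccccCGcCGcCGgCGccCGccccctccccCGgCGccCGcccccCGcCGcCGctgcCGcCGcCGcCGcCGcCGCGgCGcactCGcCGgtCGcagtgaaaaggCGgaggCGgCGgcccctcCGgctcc
ADTRP: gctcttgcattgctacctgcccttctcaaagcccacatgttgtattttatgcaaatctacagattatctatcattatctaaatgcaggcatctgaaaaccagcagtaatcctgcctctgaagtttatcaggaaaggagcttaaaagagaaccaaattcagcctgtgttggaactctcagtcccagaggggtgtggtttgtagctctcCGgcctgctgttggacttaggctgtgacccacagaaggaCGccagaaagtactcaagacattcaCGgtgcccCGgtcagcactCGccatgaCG
ATP6V1C2: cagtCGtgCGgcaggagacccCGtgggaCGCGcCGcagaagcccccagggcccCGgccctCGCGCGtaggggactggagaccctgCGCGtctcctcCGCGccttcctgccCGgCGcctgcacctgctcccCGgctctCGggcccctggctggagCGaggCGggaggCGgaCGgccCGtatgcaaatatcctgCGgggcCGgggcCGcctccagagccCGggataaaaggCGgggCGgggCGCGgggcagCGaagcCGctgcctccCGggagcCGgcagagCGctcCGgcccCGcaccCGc
HERC5: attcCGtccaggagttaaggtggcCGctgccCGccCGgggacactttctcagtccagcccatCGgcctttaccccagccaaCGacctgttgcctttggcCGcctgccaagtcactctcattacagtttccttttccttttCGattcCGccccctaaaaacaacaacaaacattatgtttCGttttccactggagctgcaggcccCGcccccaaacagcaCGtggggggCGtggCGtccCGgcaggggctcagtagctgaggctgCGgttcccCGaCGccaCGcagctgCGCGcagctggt
The windows of RBPMS2 and ATP6V1C2 are dense in CpG and that of ADTRP is poor in it. RBPMS2 was below the floor at 4.82, 4.46 and 2.79 in the vehicle and at 7.95, 7.60 and 7.57 at 10 µM (at least 5.90-fold, adjusted p = 0.000512). The ADTRP signals were 3.69, 4.26 and 4.59 against 7.58, 7.52 and 7.68 (at least 5.46-fold, adjusted p = 3.63e-05). ATP6V1C2 had 2.72, 2.56 and 3.14 against 8.01, 7.17 and 7.49 (at least 5.32-fold, adjusted p = 1.31e-05). In all 3 the 10 µM arrays lay above the floor and the vehicle arrays below it, as the choice of rises from below the floor required. A comparison of CpG density between the called classes was void, since a window was found for 72.5% of the genes that rose from below the floor and 74.9% of the lower genes, under the 80% such a check needs.

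Genes of the G1/S transition and of DNA replication were the list with the most calls. Of 49 on the array 45 were tested, and 25 were called higher and 0 lower, beside 5.46% and 1.57% of all tested genes. All 45 differences were positive, and the median was 1.06 on the log2 scale against 0.03 for all tested genes. CCNE2, which encodes cyclin E2, had signals of 5.02, 5.25 and 5.57 in the vehicle, close to the floor, and 7.92, 7.75 and 7.77 at 10 µM (difference 2.53 ± 0.14 SE, adjusted p = 3.04e-05). CDT1, a licensing factor that loads the MCM helicase at origins, moved from 5.57, 5.74 and 5.46 to 7.55, 7.43 and 7.75 (1.99 ± 0.14, adjusted p = 6.99e-05). ORC6, a subunit of the origin recognition complex, moved from 8.28, 8.26 and 8.31 to 10.44, 9.95 and 10.28 (1.94 ± 0.14, adjusted p = 7.14e-05). In none of these did the groups overlap. The helicase genes MCM2, MCM4, MCM5, MCM6 and MCM7, the partners CDC45, GINS1, GINS2 and GINS3, and the polymerase genes POLE, POLE2 and POLD1 were called as well, along with E2F1, E2F8 and CCNE1. DTL, part of the ubiquitin ligase that removes CDT1, rose by 1.91 ± 0.24 (adjusted p = 0.000674). The count was 15 with equal array medians and 13 with _x_at and _s_at probe sets left out, and the median was 0.93 under quantile normalization and 0.79 with equal medians. In RNA of whole cultures more cells of a cell cycle phase or of a type and more RNA per cell cannot be told apart.

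G2/M and mitosis genes went the other way. Of 50 on the array 46 were tested, and 15 were called lower and 0 higher, beside 1.57% and 5.46% of all tested genes. In this list 7 differences were positive and the median was -0.49. CCNB2, which encodes cyclin B2, had 10.11, 10.10 and 9.70 in the vehicle and 7.92, 8.46 and 8.09 at 10 µM (-1.82 ± 0.18, adjusted p = 0.000229). CCNB2 was not called with the mean of probe sets. KIF4A, a chromosome-associated kinesin, had 7.66, 7.51 and 7.20 against 5.84, 6.01 and 5.92 (-1.54 ± 0.14, adjusted p = 0.000163). BIRC5, survivin of the chromosomal passenger complex, had 7.72, 7.46 and 7.07 against 5.48, 6.09 and 6.21 (-1.49 ± 0.23, adjusted p = 0.00196), while its other tested probe set gave -0.54 and was not called. All 3 genes had every 10 µM array below every vehicle array. PTTG1, the securin that holds back separase, fell by 1.30 on the log2 scale (SE 0.19, adjusted p = 0.00136). The kinetochore genes CENPA, CENPE, CENPF and BUB1, the spindle genes TPX2, ASPM, HMMR, DLGAP5 and KIF20A, and NEK2 and CDCA8 were called too. The vehicle arrays were themselves spread, with list medians of 0.28, 0.01 and -0.27 around their mean, against -0.55, -0.38 and -0.49 at 10 µM. MKI67, the proliferation marker, differed by -0.15 ± 0.22 (adjusted p = 0.609) and was chosen after its values were seen. The count of 15 fell to 5 with the methods' t-test (BIRC5 among those lost), which estimates the spread of each gene alone, to 10 without 0 µM replicate 1 and to 9 with _x_at and _s_at probe sets left out, and the median was -0.61 under quantile normalization and -0.77 with equal medians.

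At 5 µM the G2/M list did not share the sign it had at 10 µM. The median of 5 µM minus 0 µM was 0.37 and that of 10 µM minus 5 µM was -1.02, in comparisons that share their arrays with that of 10 µM and 0 µM. CCNB2 had a 5 µM mean of 9.67 and was lower at 10 µM than at 5 µM (-1.52, adjusted p = 0.00276), as were KIF4A (-1.41, adjusted p = 0.00162), BIRC5 (-1.61, adjusted p = 0.00477) and PTTG1 (-1.32, adjusted p = 0.00456). The G1/S list had medians of 0.79 for 5 µM minus 0 µM and 0.22 for 10 µM minus 5 µM. Between the treated groups CCNE2 differed by -0.13 (adjusted p = 0.545), ORC6 by -0.08 (adjusted p = 0.715) and CDT1 by 0.55 (adjusted p = 0.0309).

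**Figure D2:**
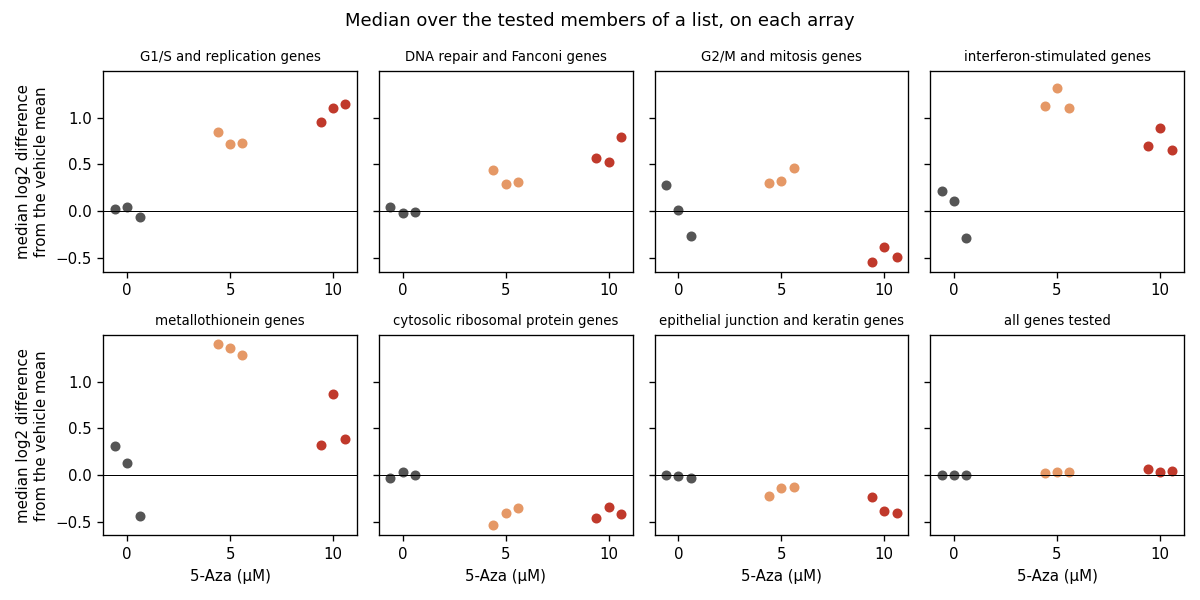
For 8 sets of genes the median log2 difference from the vehicle mean over the tested members (vertical axis) is drawn for each array at 0, 5 and 10 µM 5-Aza (horizontal axis), 1 point per array. The G1/S medians are 0.95 to 1.15 at 10 µM, the G2/M medians are 0.30 to 0.46 at 5 µM and -0.55 to -0.38 at 10 µM, and the medians of all tested genes lie near 0 throughout.

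DNA repair and Fanconi anaemia genes, which handle crosslinks and broken forks, were higher for 8 of 37 tested genes (42 on the array) and lower for 0. Their median was 0.50, and 5.46% and 1.57% of all tested genes were called higher and lower. LIG1, the ligase that joins Okazaki fragments, had 6.95, 6.68 and 7.53 against 8.98, 8.47 and 8.85 (1.71 ± 0.21, adjusted p = 0.000663). FANCI, which is ubiquitinated with FANCD2, had 7.79, 7.74 and 7.75 against 9.18, 8.99 and 9.55 (1.48 ± 0.15, adjusted p = 0.00026). Neither pair of groups overlapped. The helicase BRIP1 rose by 1.58 ± 0.16 (adjusted p = 0.000239). Among the other calls were BARD1, BRCA1, FANCG and BLM, and without 10 µM replicate 2 or another single array the count ranged from 7 to 12. Among p53 targets 3 of 25 tested genes were higher, beside 5.46% of all tested genes, namely the damage recognition gene DDB2 (1.78 ± 0.36, adjusted p = 0.00649), the death receptor FAS (1.41 ± 0.31, adjusted p = 0.00943, not called without 0 µM replicate 3) and TP53INP1 (1.32 ± 0.14, adjusted p = 0.00032). The median of the p53 list was 0.18, and it was -0.10 with equal array medians. Whether p53 itself acted on these genes was not tested. Of 28 tested apoptosis regulators 0 were called by limma, 5215 of all 11378 genes having an unadjusted p under 0.05, and the 2 with the smallest p, FADD (-0.75 ± 0.11, adjusted p = 0.00157) and BCL2L2 (-0.58 ± 0.10, adjusted p = 0.00308), were below the fold threshold.

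Of the enzymes that set and guard DNA methylation and their partners, 3 of 21 tested genes were higher and 0 lower, where 5.46% and 1.57% of all tested genes were, with a median of 0.12 that turned to -0.16 with equal array medians. DNMT1, the maintenance methyltransferase that 5-Aza traps, had 8.49, 8.62 and 8.70 in the vehicle and 9.20, 9.37 and 9.25 at 10 µM. The arrays did not overlap, yet the difference of 0.67 ± 0.10 (adjusted p = 0.00172) stayed under 2-fold. UHRF1, which brings DNMT1 to replicated DNA, moved from 8.11, 8.03 and 7.96 to 9.45, 9.41 and 9.49 (1.42 ± 0.09, adjusted p = 4.47e-05). HELLS, a chromatin remodeller needed for DNA methylation, moved from 7.14, 6.96 and 7.35 to 8.97, 8.78 and 8.59 (1.63 ± 0.18, adjusted p = 0.00044), and its 3 other tested probe sets were called higher as well. The de novo enzyme gene DNMT3B rose by 1.05 ± 0.21 (adjusted p = 0.00598), a call that was lost without 0 µM replicate 1, without 0 µM replicate 3, and without 10 µM replicate 1 or 3, and also with quantile normalization, equal array medians and the methods' t-test.

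The uptake and metabolism of deoxycytidine, on which 5-Aza depends, gave 5 higher and 1 lower gene of 23 tested. Of all tested genes 5.46% were higher and 1.57% lower. TYMS, thymidylate synthase, had 7.56, 7.38 and 7.30 in the vehicle, a mean of 8.29 at 5 µM and 9.41, 9.12 and 9.41 at 10 µM. The rise was 1.90 ± 0.13 (adjusted p = 5.9e-05), and 10 µM exceeded 5 µM by 1.03 (adjusted p = 0.00306). CDA, cytidine deaminase, which inactivates deoxycytidine analogs, was at 6.56, 6.97 and 7.21 in the vehicle and at 5.83, 5.95 and 4.95 at 10 µM (-1.34 ± 0.31, adjusted p = 0.0111). Its 5 µM mean was 8.34, above every array of the other doses, so that 10 µM was below 5 µM by a difference of -2.76 (adjusted p = 0.00243). Thymidine phosphorylase, TYMP, rose by 1.75 ± 0.23 (adjusted p = 0.000783). A second tested probe set gave 0.93 for TYMS, 0.47 for TYMP and 0.83 for RRM2, none of them called. The ribonucleotide reductase genes RRM1 and RRM2 and CMPK2, which the interferon list also holds, completed the calls. RRM2 was called at 1.06 ± 0.20 (adjusted p = 0.00407) and lost its call without 0 µM replicate 3 or 10 µM replicate 2, and the count of 5 was then 2.

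Interferon-stimulated genes were higher for 23 of 59 tested members (61 on the array), beside 5.46% of all tested genes. The list had 0 lower, 55 positive differences and a median of 0.73. XAF1, a proapoptotic interferon target, had 9.19, 8.69 and 8.50 in the vehicle and 10.79, 10.77 and 10.98 at 10 µM (2.05 ± 0.18, adjusted p = 0.000166), with 0.56 and 1.27 on its other probe sets. RSAD2, an antiviral enzyme that makes a chain-terminating nucleotide, had 7.03, 6.97 and 6.53 against 8.39, 9.57 and 8.57 (2.00 ± 0.28, adjusted p = 0.00112). The membrane protein gene IFITM1, a barrier to virus entry, had 9.41, 9.44 and 8.59 against 10.74, 11.44 and 10.77 (1.84 ± 0.26, adjusted p = 0.00119). Replicate 3 was lowest of the vehicle arrays in all 3 of these genes and replicate 2 highest at 10 µM in RSAD2 and IFITM1. HERC5 was below the floor in the vehicle at 4.54, 4.03 and 3.26 and reached 7.06, 7.78 and 7.10 (at least 4.49-fold, adjusted p = 0.000179), and RTP4, a receptor transporter induced by interferon, was at least 3.47-fold higher (adjusted p = 0.00812). Other called members were MX1, MX2, IFIT1, IFIT2, IFIT3, IFI44, IFI44L, DDX60, GBP1 and TRIM22. Without 0 µM replicate 3 the count was 13, without 10 µM replicates 2 and 3 it was 11, with equal array medians 12 and with the methods' t-test 7, and the list median was 0.73 under quantile normalization and 0.45 with equal medians. The 5 µM minus 0 µM median of these genes was 1.13 and the 10 µM minus 5 µM median was -0.41. IFITM1 was lower at 10 µM than at 5 µM (-1.18, adjusted p = 0.0178) and HERC5 too (-1.14, adjusted p = 0.0369), whereas XAF1 differed by -0.02 (adjusted p = 0.947).

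The sensors of cytosolic nucleic acids, which act upstream of interferon, had 3 of 21 tested genes higher and a median of 0.41, beside 5.46% and 0.03 for all tested genes. DHX58, a regulator of RNA sensing, rose by 1.34 ± 0.21 (adjusted p = 0.0019) and the DNA sensor IFI16 by 1.32 ± 0.30 (adjusted p = 0.00985). OAS2, which senses double-stranded RNA and is also an interferon list member, was called at 1.18 ± 0.31 (adjusted p = 0.0172) and lost its call without 0 µM replicate 3, with 0.77 and no call on its other probe set. In MHC class I presentation 3 of 22 tested genes were higher (5.46% of all tested genes) with a median of 0.50, and the count was 7 without 10 µM replicate 3. NLRC5, the transactivator of class I genes, had 6.04, 6.26 and 4.92 against 8.0, 8.29 and 8.16 (2.41 ± 0.32, adjusted p = 0.000872). The immunoproteasome subunit PSMB9 rose by 1.54 ± 0.28 (adjusted p = 0.00417) and the peptide transporter TAP1 by 1.48 ± 0.17 (adjusted p = 0.000443). Of 4 tested MHC class II genes HLA-DOB was called, at least 1.78-fold higher (adjusted p = 0.00056). It was below the floor in the vehicle and was tested only because the 10 µM arrays reached the floor.

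The promoter windows of the interferon, G1/S and NF-kB lists were searched for motifs. The interferon-stimulated response element was searched as GAAA, NN and GAAA in a row, the E2F motif as TTTNGCGC and an NF-kB motif as GGG, NN and TTTCC in a row (N for any base), each on both strands, and overlaps between different motifs were kept. A window was found for 48 of the 59 tested interferon genes, and 31 of these (64.6%) held the response element, against 2.74% of the tested genes with a window and 3.65% of all RefSeq windows. The E2F motif was in 16 of 39 G1/S windows (41.0%), against 3.00% of tested genes and 1.83% of all windows. The NF-kB motif was in 9 of 21 windows of the NF-kB list (42.9%), against 2.24% and 1.92%. The windows of IFITM1 (chr11:313790-314089, plus strand) and RTP4 (chr3:187368135-187368434, plus strand) are shown for the response element, and that of CDT1 (chr16:88803539-88803838, plus strand), chosen after its values were seen, for the E2F motif. Capitals mark the matches, and the CDT1 match reads on the opposite strand.
IFITM1: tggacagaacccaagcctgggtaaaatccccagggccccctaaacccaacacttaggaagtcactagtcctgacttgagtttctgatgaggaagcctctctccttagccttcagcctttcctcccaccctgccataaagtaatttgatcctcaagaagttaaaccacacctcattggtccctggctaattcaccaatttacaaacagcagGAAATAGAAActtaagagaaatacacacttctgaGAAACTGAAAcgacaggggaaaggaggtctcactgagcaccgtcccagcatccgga
RTP4: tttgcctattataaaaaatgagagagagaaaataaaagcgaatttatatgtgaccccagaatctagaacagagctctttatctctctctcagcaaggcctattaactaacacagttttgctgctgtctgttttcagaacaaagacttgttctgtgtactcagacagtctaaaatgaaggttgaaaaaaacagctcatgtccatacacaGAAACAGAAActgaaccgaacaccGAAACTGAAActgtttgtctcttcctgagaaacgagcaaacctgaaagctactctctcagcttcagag
CDT1: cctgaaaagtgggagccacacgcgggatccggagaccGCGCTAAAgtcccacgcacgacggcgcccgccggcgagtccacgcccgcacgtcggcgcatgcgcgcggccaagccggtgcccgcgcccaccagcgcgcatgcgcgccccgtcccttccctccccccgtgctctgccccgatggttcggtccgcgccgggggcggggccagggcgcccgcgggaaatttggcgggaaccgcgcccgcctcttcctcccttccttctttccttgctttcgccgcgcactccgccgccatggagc
IFITM1 and RTP4 hold 2 matches each and CDT1 holds 1. Only called interferon genes with the element in their window could be shown, so a match in IFITM1 and RTP4 was fixed by the choice. The HERC5 window above holds a response element too, on the opposite strand. The E-box, CACGTG, was in 10.4% of interferon windows and 12.8% of G1/S windows, against 10.3% of tested genes and 7.43% of all windows. A match describes the letters of the window and no bound factor.

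**Figure D3:**
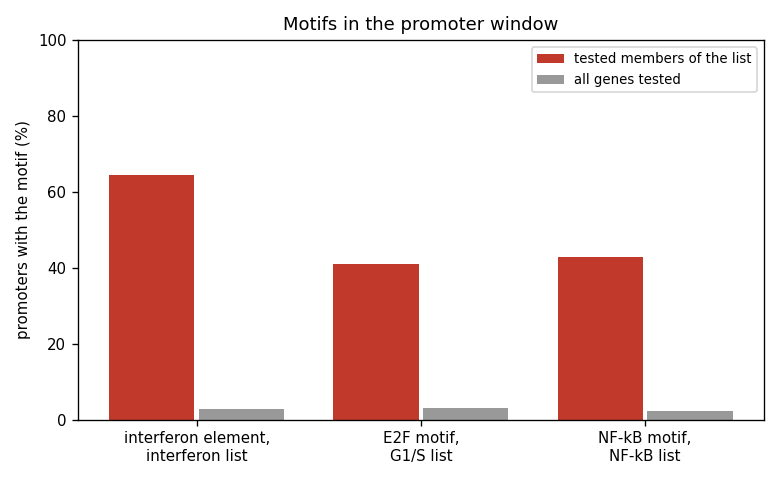
The share of promoter windows with a motif, in percent (vertical axis), is drawn for the tested members of 3 lists, called or not (red bars). Grey bars are all tested genes with a window. The red bars stand at 64.6%, 41.0% and 42.9% and the grey bars at 2.74%, 3.00% and 2.24%.

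Chemokines and feedback genes of NF-kB were higher for 7 of 26 tested members (36 on the array), beside 5.46% of all tested genes. The list had 0 lower and a median of 0.64. CCL20, which attracts cells with the receptor CCR6, had 5.98, 5.30 and 3.79 in the vehicle and 8.15, 8.94 and 8.31 at 10 µM (3.45 ± 0.48, adjusted p = 0.00113). CXCL8, the neutrophil chemokine interleukin-8, had 6.74, 6.01 and 6.23 against 7.74, 8.85 and 8.11 (1.90 ± 0.28, adjusted p = 0.00157). CXCL2, another neutrophil chemokine, had 6.71, 6.48 and 6.60 against 8.30, 8.57 and 8.44 (1.84 ± 0.13, adjusted p = 7.56e-05). The groups did not overlap in any of these, and CXCL2 was also above its 5 µM level (0.63, adjusted p = 0.0162). TNFAIP3, the feedback inhibitor A20, rose by 1.56 ± 0.19 (adjusted p = 0.000585), and CXCL1, CXCL3 and the interleukin-1 receptor IL1R1 were called too. With the methods' t-test or with _x_at and _s_at probe sets left out the count was 4.

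**Figure D4:**
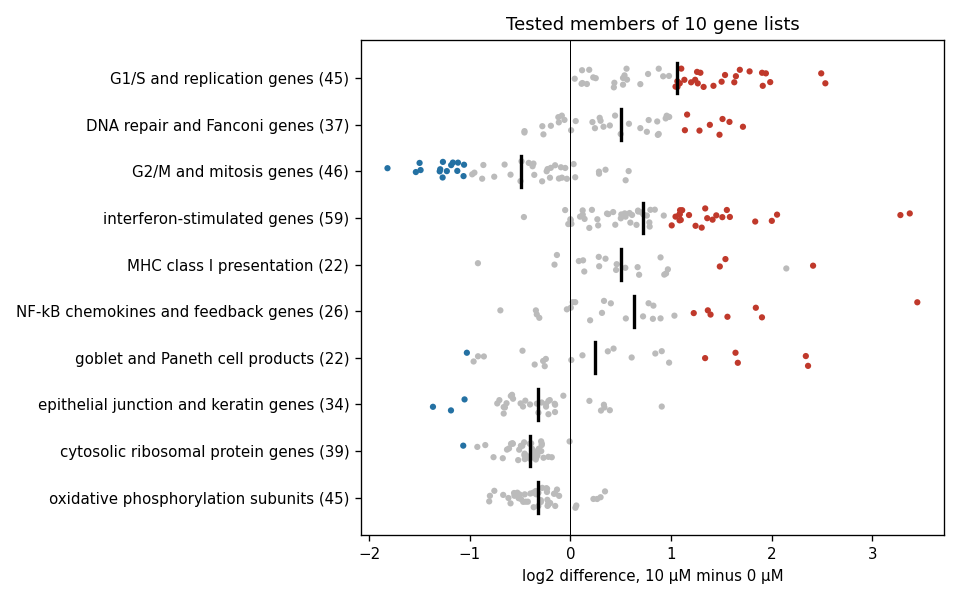
Each point is 1 tested gene of 10 lists, placed at its log2 difference of 10 µM minus 0 µM (horizontal axis), with the number tested in parentheses, red for genes called higher, blue for lower, grey for others, and a black bar at the list median. The G1/S genes all lie to the right of 0, whereas 39 of 46 G2/M genes and 39 of 39 ribosomal protein genes lie to the left.

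Germ cell genes, which are methylated and silent in most somatic cells, were mostly below the floor. Of 47 on the array 8 were tested, with 2 higher, beside 5.46% of all tested genes. All 8 differences were positive, with a median of 0.42. A gene short of the floor in the vehicle was tested only if every 10 µM array reached the floor. Both called genes, MAEL and TEX19, entered in this way, so the count and the signs were partly set by the filter. MAEL, a gene of the piRNA pathway, had 3.61, 0.93 and 2.38 in the vehicle, a mean of 9.60 at 5 µM and 6.56, 6.93 and 6.67 at 10 µM. It was at least 2.98-fold higher at 10 µM than in the vehicle (adjusted p = 0.000566) and lower at 10 µM than at 5 µM by a difference of -2.88 (adjusted p = 0.01). TEX19, active in germ cells and placenta, rose by 1.13 ± 0.18 (adjusted p = 0.00203), was also lower than at 5 µM (-1.10, adjusted p = 0.00636), and was not called with quantile normalization, equal medians, the methods' t-test or low signals raised to the floor. It reached the floor on 1 of 3 vehicle arrays, and its difference with low signals raised was 0.90. Of 31 cancer-testis antigens on the array 3 were tested and 0 called. Of these, MAGEA6 had 8.58, 8.65 and 8.55 against 8.07, 8.75 and 8.29 (-0.22 ± 0.16, adjusted p = 0.306), with overlapping arrays and a 5 µM mean of 9.82.

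Among imprinted genes 2 of 13 tested were higher, beside 5.46% of all tested genes, and the list median was -0.18. Both were below the floor on every vehicle array and were tested only because the 10 µM arrays reached it. PEG10, an imprinted gene of retrotransposon origin, had 1.14, 2.91 and 0.58 in the vehicle, 8.51 on average at 5 µM and 6.63, 5.88 and 5.94 at 10 µM (at least 2.00-fold over the vehicle, adjusted p = 0.000372). TP73, a relative of p53 entered in this list, was at least 1.51-fold higher (adjusted p = 0.000695). Of 62 genes with promoters often methylated in colorectal tumours 15 were tested, with a median of 0.01. Of the 15, 1 was higher and 1 lower, beside 5.46% and 1.57% of all tested genes. The secreted Wnt antagonist DKK1 had 7.21, 7.04 and 7.18 against 8.99, 9.38 and 8.73 (1.89 ± 0.18, adjusted p = 0.000192). CDKN2A, which encodes the cell cycle inhibitor p16, had 10.47, 10.50 and 10.36 against 9.48, 9.18 and 9.05 (-1.21 ± 0.12, adjusted p = 0.000294). Another CDKN2A probe set gave -0.80 and was not called. With the mean of probe sets, or without _x_at and _s_at probe sets, CDKN2A was not called. SPARC, a matrix gene silenced in many colon tumours, was below the floor on every array and was not tested. On the same RNA samples the study detected SPARC by RNA-Seq and PCR at 5 µM and not in the control.

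Products of the gut epithelium were divided in direction. The counts below stand beside 5.46% called higher and 1.57% called lower among all tested genes. Of 35 goblet and Paneth cell products on the array 22 were tested. Of these, 5 were higher and 1, MUC12, was lower, with a median of 0.24 (-0.03 with equal array medians). REG4, SPINK4 and MUC1, all called higher, were short of the floor on at least 1 vehicle array. They were tested only because every 10 µM array reached it, so the count was partly set by the filter. REG4, a secreted lectin, had 5.22, 5.82 and 4.80 against 8.21, 7.57 and 7.15 (2.36 ± 0.30, adjusted p = 0.000707). The protease inhibitor SPINK4 of goblet cells was at least 3.57-fold higher (adjusted p = 0.00035), from 4.70, 4.11 and 5.12 to 6.99, 6.79 and 7.16. The trefoil peptide TFF1 rose by 1.66 ± 0.13 (adjusted p = 8.96e-05), and MUC1, a membrane mucin, by 1.64 ± 0.27 (adjusted p = 0.0024). Of 21 enterocyte and colonocyte products 5 were higher and 1 lower. SLC26A2, a sulfate transporter, moved from 6.79, 6.86 and 7.21 to 8.69, 8.83 and 8.42 (1.70 ± 0.15, adjusted p = 0.000148), and the adhesion protein CEACAM7 rose by 1.67 ± 0.19 (adjusted p = 0.000467). ANXA13, an annexin of intestinal epithelium and the largest fall by the ranking used, had 12.15, 12.12 and 11.85 against 9.51, 10.30 and 9.87 (-2.15 ± 0.19, adjusted p = 0.000156). Of 12 tested intestinal transcription factors 0 were higher and 2 lower, HNF4G (-1.15 ± 0.12, adjusted p = 0.000336) and ELF3 (-1.04 ± 0.15, adjusted p = 0.00121), the latter not called without 0 µM replicate 3 or 10 µM replicate 2. Neither was called with the mean of probe sets, nor was ELF3 with quantile normalization. The other tested ELF3 probe sets gave -1.30 and -0.66. The median of these factors was -0.40.

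**Figure D5:**
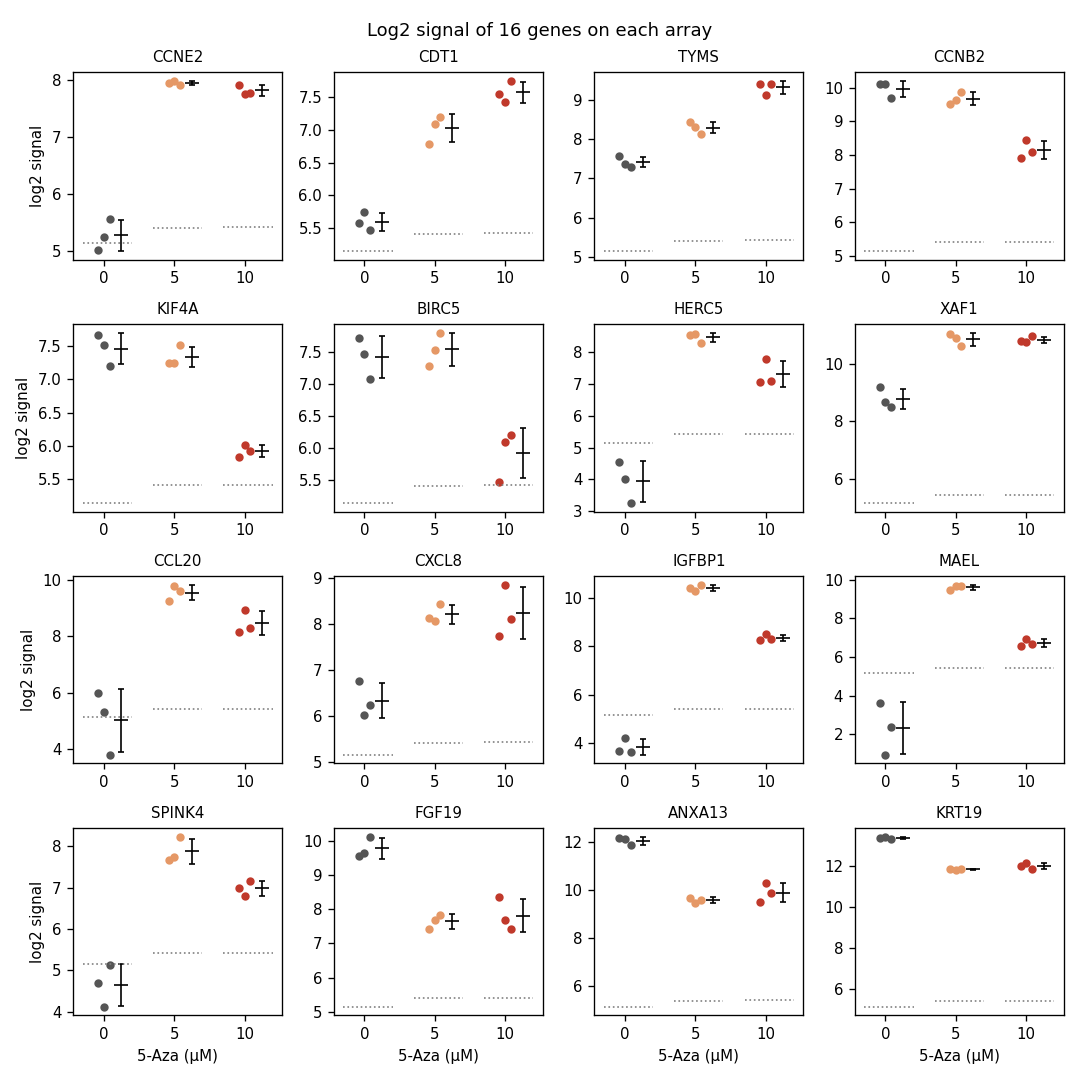
Log2 signals of 16 genes (vertical axes, scaled per gene) are drawn for each array at 0, 5 and 10 µM 5-Aza (horizontal axes), with the mean ± SD of 3 arrays beside the points and the mean array median, the floor, as a dotted line. CCNE2, CDT1 and TYMS lie higher at 10 µM than in the vehicle, CCNB2, KIF4A and BIRC5 lie low at 10 µM alone, and MAEL and IGFBP1 are highest at 5 µM.

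Falls also occurred among keratins, aldo-keto reductases and other named genes. The list counts stand beside 1.57% called lower and 5.46% called higher among all tested genes. Of 34 tested epithelial junction and keratin genes 3 were lower and 0 higher, with a median of -0.33. KRT19, a keratin of simple epithelia, had 13.36, 13.40 and 13.32 in the vehicle and 11.85 to 12.13 on the 10 µM arrays (-1.37 ± 0.10, adjusted p = 7.14e-05). KRT8 fell by 1.05 on the log2 scale (SE 0.14, adjusted p = 0.000796) and was not called without 10 µM replicate 3 or with quantile normalization. KRT19 was not called with the mean of probe sets. For KRT7 the brightest probe set gave -1.19 ± 0.15 (adjusted p = 0.000641) and the other tested one 0.63, so its direction depends on the probe set. AKR1B10, an aldo-keto reductase that reduces retinal, had 11.45, 11.56 and 11.44 against 9.30, 10.03 and 9.70 (-1.80 ± 0.17, adjusted p = 0.000202). Along with it ALDH3A1 (-1.33 ± 0.22, adjusted p = 0.00245) and AKR1C3 (-1.01 ± 0.19, adjusted p = 0.00408) were lower among 31 tested NRF2 targets and aldo-keto reductases, a list with 0 genes called higher and 8 positive differences, and AKR1C3 was not called without 0 µM replicate 2 or 10 µM replicate 1. AKR1C3 also lost its call with quantile normalization, with array weights and with the methods' t-test. FGF19, the gut hormone that restrains bile acid synthesis, had 9.56, 9.65 and 10.11 against 8.35, 7.69 and 7.41 (-1.96 ± 0.25, adjusted p = 0.000684), while SLC51B, a subunit of the bile acid exporter, rose by 1.81 ± 0.11 (adjusted p = 4.47e-05). MAOB, monoamine oxidase B, fell by 1.75 (SE 0.15, adjusted p = 0.000129), the endocytic receptor LRP1 by 1.83 (SE 0.30, adjusted p = 0.0024, with -1.32 and no call on its other probe set), the kinase anchor AKAP7 by 1.61 (SE 0.12, adjusted p = 8.77e-05) and LAD1, a basement membrane protein, by 1.59 (SE 0.16, adjusted p = 0.000278). In TPPP3, a tubulin polymerization protein, replicate 1 stood between the vehicle and the other 10 µM arrays, at 7.68 against 6.44 and 6.19 (vehicle 9.07, 8.73 and 8.47, difference -1.99 ± 0.37, adjusted p = 0.00424). Annexins, serpins and S100 genes had 4 lower and 2 higher of 31 tested, among them ANXA10 (-1.68 ± 0.21, adjusted p = 0.0007) and S100A11, a calcium-binding protein (-1.55 ± 0.14, adjusted p = 0.000175).

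Ribosomal protein genes differed little but all in the same direction. All 39 were tested, 0 had a positive difference, the groups did not overlap for 38 (44.9% of all tested genes), and the median was -0.41, or -0.13 after quantile normalization and -0.68 with equal medians. RPL3 was called lower (-1.07 ± 0.16, adjusted p = 0.00144), a call lost with quantile normalization and without 10 µM replicate 1. Oxidative phosphorylation subunits had a median of -0.32 over 45 tested genes, with 0 called. The strongly expressed control gene GAPDH was at 13.80, 13.82 and 13.71 against 13.43, 13.44 and 13.08 (-0.46 ± 0.12, adjusted p = 0.0205), while 13 housekeeping genes as a list had a median of -0.09 (0.08 after quantile normalization) and 0 calls.

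Genes of mesenchymal and neuronal cells rose in small numbers. Among all tested genes 5.46% were called higher and 1.57% lower. Of 53 mesenchymal and matrix genes on the array 25 were tested. Of these, 4 were higher and 0 lower, with a median of 0.11 (-0.17 with equal medians). The called genes TNC, FN1 and MMP1 were tested only because every 10 µM array reached the floor. The tenascin gene TNC had 4.93, 5.94 and 6.05 against 7.17, 7.19 and 7.16 (1.53 ± 0.26, adjusted p = 0.00272). FN1, fibronectin, was at least 2.06-fold higher (adjusted p = 0.00421) and the collagenase MMP1 at least 1.74-fold (adjusted p = 0.00172), both from below the floor. COL1A1, the collagen chain, gave 1.98 ± 0.25 (adjusted p = 0.000765) on its brightest probe set and -0.73 and 1.76 on 2 others, neither of which was called. The count was 1 with the mean of the probe sets or with the methods' t-test. As given above, the summed signal of fibroblast markers also moved, and it holds COL1A1 and its part in these values was not tested. Of 12 tested neuronal markers 5 were higher, including MAP2, a microtubule protein of dendrites (1.38 ± 0.14, adjusted p = 0.000278), STMN3 (1.23 ± 0.29, adjusted p = 0.0111, not called without 0 µM replicate 2) and BEX2 (at least 2.12-fold, adjusted p = 0.00246).

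Of 13 genes on the array that the study had assayed by PCR, 10 were tested, with a median of 0.55. Of these, 3 were higher and 1 lower, beside 5.46% and 1.57% of all tested genes. The study's PCR compared 5 µM with 0 µM and did not cover 10 µM. Apart from SPARC, which the study added separately, the PCR genes had been chosen on the same RNA samples. They are not independent evidence of a direction. IL1R1 had 5.30, 5.45 and 5.16 against 6.63, 6.77 and 6.61 (1.36 ± 0.11, adjusted p = 0.000129) and was below its 5 µM level by a difference of -0.81 (adjusted p = 0.00447). The kinase MAPK10 rose by 1.22 ± 0.18 (adjusted p = 0.00161). IRF7, a transcription factor of the interferon response, differed by 0.54 ± 0.13 (adjusted p = 0.0122) and the transglutaminase TGM2 by -0.84 ± 0.10 (adjusted p = 0.000613), both under 2-fold. EFNB1, an ephrin, had 6.77, 6.75 and 6.74 against 6.77, 6.25 and 6.09, with overlapping arrays (adjusted p = 0.107).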

How the data were processed

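RNA of 9 HT-29 cultures had been measured on Affymetrix U133 Plus 2.0 arrays, 1 array per culture, and groups and replicate numbers were taken from the sample labels. The values deposited by the authors are log2 signals of 54675 probe sets. Their processing notes name RMA and affy 1.14.2, but the values are log2 of multiples of 0.1 and, on the linear scale, each array's 2% trimmed mean is 250.0, the form of MAS 5.0 signals scaled by 1 factor per array, and their sorted values differ between arrays, at most by 1.58. Low signals are therefore noisy. With 3 arrays per group, their number limits the precision.

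Gene names came from the platform's table and RefSeq (GRCh38.p14). Of the probe sets, 41091 had 1 gene, 1801 several and 11721 none, 62 were controls, and 6 with a missing value were left out. Each gene took its brightest probe set, and 19735 of 19775 genes matched RefSeq. limma 3.58.1 (lmFit, eBayes, R 4.3.3) was fitted to all 9 arrays with 1 mean per group. Tests were two-sided, differences are 10 µM minus 0 µM ± SE, and calls needed more than a 2-fold difference and a p of 0.05 or less after Benjamini-Hochberg adjustment, the thresholds the methods of the study give for eBayes. Dose differences between 10 µM and 5 µM came from the same fit. For "at least" folds, each signal below its array's median was raised to that median.

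The 41 gene lists (1271 of 1425 entries on the array), the genes named and the comparison were chosen with earlier results of these data known. Named were DNMT1, SPARC, GAPDH, the genes assayed by PCR, the 12 largest rises and 12 largest falls by raised values among called genes without overlap, at most 4 called members per list, or the 2 with the smallest p. Further called members are named without that rule. A called member of the DNA repair list is not reported here. Promoters were windows from RefSeq. Code was tested on simulated data. Python 3.11.15 and matplotlib 3.10.9 drew the figures. The alternatives tried are given in the closing section.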

Additional observations from a re-analysis of the deposited data

Results flagged for a closer look

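The actin control, as the 3′ log2 signal minus the 5′ one, averaged 2.98 ± 0.17 at 10 µM, 2.59 ± 0.10 at 5 µM and 2.09 ± 0.19 at 0 µM (SD, 3 arrays each). It drew attention because it is a signal outside the gene comparison that was above its level on every vehicle array. The GAPDH control likewise averaged 0.57 ± 0.11 at 10 µM, against 0.32 ± 0.02 at 5 µM and 0.19 ± 0.06 at 0 µM. The part of either in the gene values was not tested beyond the fit with the actin signal as a covariate.

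Probe sets without a gene in the platform's table stand outside the comparison of genes as well. Of 3935 that reached the floor, 320 were called higher (8.13%) and 26 lower (0.661%) at 10 µM by the same limma thresholds, beside 5.46% and 1.57% of the genes.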

How the results depend on the processing

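Against 621 higher and 179 lower genes, the counts were 3 and 0 with the actin covariate, 807 and 309 with array weights, 386 and 478 with equal array medians, 960 and 380 over probe sets in place of genes, 315 and 104 with the methods' t-test, and 2261 and 1619 without the fold threshold. Leaving out 1 array at a time gave 559 to 808 higher and 149 to 249 lower genes, and without 10 µM replicates 2 and 3 the counts were 792 and 223, with a lone 10 µM array assumed to vary like the other groups. Fits of the 0 and 10 µM arrays alone, other floors, raised low signals, the mean of probe sets, probe sets without _x_at and _s_at, quantile normalization, and trend with robust fitting stayed within 1.5 times of both counts. The methods' t-test kept 69 of the 100 named genes that were called, losing among others CXCL8, CCL20, TPPP3, LRP1, TMEM54, PITX1, RSAD2, IFITM1, IFI16, PSMB9, DDB2, FAS, MUC1, TNC, FN1, MMP1, BEX2 and CDA. Quantile normalization kept 88 and equal array medians 90. The actin covariate kept 2.

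Of the named genes, some turned direction. With the actin covariate EFNB1 was at 0.11, TPPP3 at 0.16, FATE1 at 0.90 and SERPINA1 at 0.69 on the log2 scale. Without 10 µM replicates 2 and 3 EFNB1 was at 0.02 and SERPINA1 at 0.32, and FATE1 ranged from -0.41 to 0.00 as single arrays were left out, with 0.00 without 10 µM replicate 3. With the mean of probe sets BCL2L2 was at 0.62, SERPINA1 at 0.41 and FARSB at 0.41, and without _x_at and _s_at probe sets KRT7 was at 0.63 and SERPINA1 at 0.77. TPPP3 and KRT7 were called lower, the others not called, and the cause was not tested.

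The replicate numbers did not pair the arrays: same-numbered 0 and 10 µM arrays had deviations from their group means that correlated at -0.109, 0.23 and 0.078, and some arrays correlated best with another number. With the replicate block 624 genes were higher and 182 lower, and all 100 named calls were kept.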

Other observations

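Among lists not described above, the stress and signalling genes held few calls but some large ones. Of all tested genes 5.46% were called higher and 1.57% lower, and counts such as the 2 of 32 and 2 of 24 below lay near that share. ATF5, a transcription factor of the ATF4 stress response, had 8.34, 8.46 and 7.96 in the vehicle and 10.31, 10.70 and 10.50 at 10 µM (2.25 ± 0.15 SE, adjusted p = 5.9e-05), while PSPH, a serine synthesis enzyme, fell by 1.02 on the log2 scale (SE 0.11, adjusted p = 0.000361) on its brightest probe set, with others from -1.10 to 0.36. PSPH was not called without 0 µM replicate 1, without 10 µM replicate 1, with quantile normalization or with the mean of probe sets. ATF5 and PSPH were the only calls among 31 tested genes of that list, whose median was -0.25. EGF, the growth factor, was at least 2.90-fold higher, from 3.72, 4.07 and 3.92 to 6.67, 6.33 and 7.04 (adjusted p = 0.000148). With the phosphatase DUSP1 (1.00 ± 0.13, adjusted p = 0.00084, not called without 0 µM replicate 2 or 3 or 10 µM replicate 1) it made 2 higher of 24 tested MAPK feedback and EGFR ligand genes. Of 6 tested metallothioneins, MT1X was called (1.08 ± 0.23, adjusted p = 0.00816) and was not called without 0 µM replicate 3 or 10 µM replicate 2. Its vehicle signals were 9.02, 8.82 and 8.25, and its 10 µM signals 9.33, 10.12 and 9.87. Among 24 ER chaperones ERO1B was higher (1.32 ± 0.29, adjusted p = 0.00949, not called without 0 µM replicate 3) and was below its 5 µM level (-1.57, adjusted p = 0.0108). Of 32 glycolysis and hypoxia genes PFKFB4 (1.33 ± 0.18, adjusted p = 0.00098) and ENO2 (1.06 ± 0.17, adjusted p = 0.00217, not called without 10 µM replicate 1) were higher. The linker histone H1-10 was lower (-1.06 ± 0.21, adjusted p = 0.00512, not called without 0 µM replicate 2 or 10 µM replicate 3) as 1 of 10 tested histone genes.

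Limma called 0 genes in 6 further lists, where 5215 of all 11378 tested genes had an unadjusted p under 0.05. Their medians were 0.13 over 18 cholesterol synthesis genes (-0.14 with equal array medians), -0.07 over 16 heat shock genes (0.07 after quantile normalization), -0.23 over 17 aminoacyl-tRNA synthetases, -0.20 over 15 Wnt targets and stem cell genes, -0.07 over 21 AP-1 and immediate early genes and 0.14 over 4 hepatocyte markers (-0.14 with equal array medians). The stem cell receptor LGR5 had 5.75, 5.59 and 5.67 against 4.99, 5.12 and 4.92, without overlap (-0.66 ± 0.12, adjusted p = 0.0044), and SOX9 differed by -0.57 ± 0.11 (adjusted p = 0.00485), both without passing 2-fold.

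Along the chromosomes, the share of tested genes called higher ran from 2.79% on chromosome 13 (6 of 215) to 8.55% on chromosome 21 (10 of 117), beside 5.46% of all, and was 4.39% on the X chromosome (15 of 342). Lower genes made up 2.90% of the tested genes of chromosome 1 and 0 of 150 on chromosome 18.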
